A study of Homo sapiens with 24 samples.

Results

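The genes examined were 8 classical targets of the oxidative stress factor NRF2 (NQO1, GCLM, GCLC, TXNRD1, SRXN1, HMOX1, PGD and TXN) and SQSTM1, 9 of the 58721 genes of the count table, taken by their symbols. In RT112 and SCaBER bladder cancer cells given a FOXA1 siRNA, SQSTM1 rose 3.95-fold and 2.12-fold. By contrast, GCLM and PGD fell in both lines, TXN fell in RT112 and NQO1 fell in SCaBER. The falls of GCLM, PGD and NQO1 did not pass the test when certain libraries were left out. That of GCLM in SCaBER was lost without any of its control or FOXA1 siRNA libraries. The changes of TXN and NQO1 did not differ between the lines past the threshold (edgeR, adjusted p 0.126 and 0.101), so these falls are not shown to be specific to a line. Adding either ZBED2 siRNA to the FOXA1 siRNA gave a lower SQSTM1 level in RT112, and siZBED2-2 did so in SCaBER. SRXN1 had no count in any library.

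NRF2, encoded by NFE2L2, is a transcription factor that KEAP1 holds in the cytoplasm and passes to a ubiquitin ligase for degradation. Oxidants and electrophiles modify KEAP1, after which NRF2 enters the nucleus, pairs with a small MAF protein and binds antioxidant response elements near genes of glutathione synthesis, the thioredoxin system, NADPH supply, quinone reduction and haem breakdown. SQSTM1 is a selective autophagy receptor that also binds KEAP1, and its own gene is a target of NRF2. NFE2L2 and KEAP1 are among the genes altered in bladder cancers.

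The assay was 3′ RNA-seq, in which reads start near the end of polyadenylated transcripts, in RT112, a luminal papillary (LumP) line grown in RPMI, and SCaBER, a basal/squamous (Ba/Sq) line grown in DMEM. Every culture received siRNA through a lipid reagent and was collected after a short-term knock-down, so the controls carry an siRNA too. The 6 treatments per line were siControl, siZBED2-1, siZBED2-2, siFOXA1, siFOXA1+siZBED2-1 and siFOXA1+siZBED2-2, with 2 libraries each (24 in all). A limit of the model is that the labels name the same FOXA1 siRNA, number 1, in all libraries that received one, so its effects and those of FOXA1 loss cannot be told apart. The labels give each library a replicate number, which may mark a shared experiment batch. Nothing says that the cultures were otherwise separate, so p-values measure the spread between these samples only, which may be technical.

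Total counts ran from 4425404 to 6119210 per library, and the 3 counts that a count of 0 allows were worth 0.474 to 0.678 CPM (counts scaled to 1e+06 per library with TMM factors), which covers counting error only. FOXA1 had 41.9 and 41.4 CPM in the siControl libraries of RT112 and 6.86 and 9.56 under siFOXA1. In SCaBER it had 20 and 28 counts under siControl and 4 and 6 under siFOXA1. This fall did not reach an adjusted p under 0.05 in the edgeR test below, whereas that in RT112 did. Averaged over the ZBED2 backgrounds, FOXA1 was lower past that threshold in SCaBER too. ZBED2 had 12 and 0 counts under siZBED2-1 and 38 and 36 under siZBED2-2 in RT112, against 101 and 92 under siControl. In SCaBER it had 12 and 40 counts under siZBED2-1 and 48 and 100 under siZBED2-2, against 101 and 96. ZBED2 was also low under siFOXA1 alone in RT112, at 27 and 7 counts, but not in SCaBER, at 100 and 84. The summed luminal markers reached 671 to 1338 CPM in RT112 and 73.7 to 149 in SCaBER, where KRT20, UPK1A and UPK3A were at 0, while the summed basal and squamous markers reached 229 to 485 and 1897 to 3549 CPM. Mitochondrial transcripts took 21.4% and 22.7% of the counts under siFOXA1 in RT112, against 17.8% and 12.2% under siControl, and 12.9% and 12.5% against 9.73% and 10.7% in SCaBER.

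The promoters of GCLM and PGD, which fell with the FOXA1 siRNA in both lines, are shown with both promoters of TXNRD1 because they are the member promoters that hold the core letters of the antioxidant response element. TGACNNNGC was searched on both strands of the 250 bases before each start (RefSeq, GRCh38.p14), and so was a longer form, the same letters followed by A, whose matches are all matches of the first. A promoter was found for 8 of the 9 genes, HMOX1 being the exception. The core stood in 4 of their 11 promoters (3 of the 8 genes), against 10.9% of 35116 promoters, and the longer form stood in 2 of the 11, against 2.59%. Each line reads 5′ to 3′ on the strand of the gene, and capitals mark the match, which lies on the opposite strand in all but the first promoter of TXNRD1.
GCLM, chr1:93909431-93909680, minus strand: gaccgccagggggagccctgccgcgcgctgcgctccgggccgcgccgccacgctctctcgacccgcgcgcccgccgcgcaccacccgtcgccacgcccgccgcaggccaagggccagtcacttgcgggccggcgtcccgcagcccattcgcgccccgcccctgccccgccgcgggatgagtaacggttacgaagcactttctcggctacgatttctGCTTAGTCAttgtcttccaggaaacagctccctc
PGD, chr1:10398814-10399063, plus strand: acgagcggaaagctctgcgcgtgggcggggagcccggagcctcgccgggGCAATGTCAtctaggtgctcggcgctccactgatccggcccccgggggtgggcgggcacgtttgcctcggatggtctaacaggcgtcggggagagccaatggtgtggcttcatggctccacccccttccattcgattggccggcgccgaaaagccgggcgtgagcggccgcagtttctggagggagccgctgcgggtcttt
TXNRD1 first start, chr12:104215529-104215778, plus strand: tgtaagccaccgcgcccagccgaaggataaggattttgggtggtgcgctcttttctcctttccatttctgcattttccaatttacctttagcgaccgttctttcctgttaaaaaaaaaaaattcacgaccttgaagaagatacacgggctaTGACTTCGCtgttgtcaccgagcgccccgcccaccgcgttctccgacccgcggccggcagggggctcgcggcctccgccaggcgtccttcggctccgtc
TXNRD1 second start, chr12:104286782-104287031, plus strand: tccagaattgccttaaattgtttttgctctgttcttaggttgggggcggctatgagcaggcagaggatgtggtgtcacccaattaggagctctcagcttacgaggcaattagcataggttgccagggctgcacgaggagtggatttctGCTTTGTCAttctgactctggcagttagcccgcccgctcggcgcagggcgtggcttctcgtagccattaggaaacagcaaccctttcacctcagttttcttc
SQSTM1 start 3, chr5:179820655-179820904, plus strand: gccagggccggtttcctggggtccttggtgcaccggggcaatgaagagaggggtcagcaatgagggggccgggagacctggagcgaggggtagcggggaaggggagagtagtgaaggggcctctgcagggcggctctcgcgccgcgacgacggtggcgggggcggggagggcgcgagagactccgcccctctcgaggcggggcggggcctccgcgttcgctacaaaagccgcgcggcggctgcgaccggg
The SQSTM1 sequence is shown as the gene that rose, with no capitals because neither form was found in this window or before its other starts. TXN and NQO1, which fell in RT112 and in SCaBER, had no match either. TXNRD1, with a match before both starts, was not called with siFOXA1. Bases outside these windows were not searched, so elements lying there would be missed. The core ended 26 bases before the start in GCLM, 193 in PGD, and 91 and 94 in TXNRD1. The longer form stood in GCLM and before the second start of TXNRD1. A match describes letters and was not tested for binding.

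The FOXA1 siRNA was examined first, as siFOXA1 against siControl. A gene was called at a Benjamini-Hochberg adjusted p under 0.05 over all genes tested, in the quasi-likelihood test of edgeR, and the other adjusted p-values below come from the same test. Of the 8 genes that passed the filter on low counts, 4 were called in RT112, 1 higher and 3 lower, where 23.3% of all 13264 genes tested were called (11.3% higher and 11.9% lower). Also 4 were called in SCaBER, again 1 higher and 3 lower, where 17.8% of 13129 genes were called (8.71% higher and 9.12% lower). The genes were chosen with earlier results of these data known, so these shares are a description only. The median log2 fold change of the 8 genes was −0.31 in RT112 and −0.11 in SCaBER, against −0.015 and −0.016 over all genes tested. In these bulk samples, fewer cells of a type and less RNA per cell cannot be told apart.

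**Figure D1:**
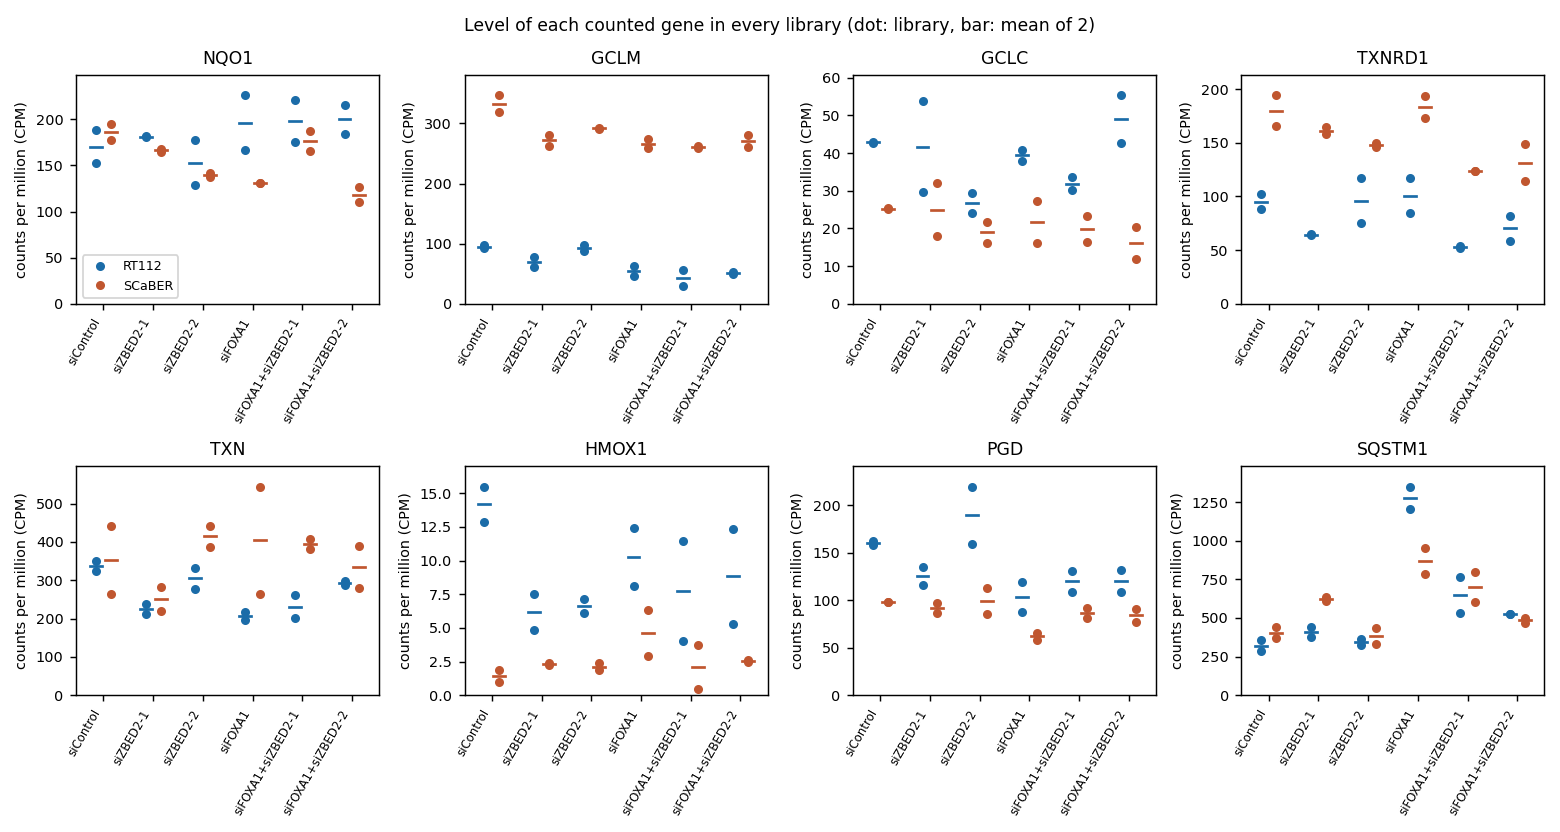
Level of the 8 counted genes in each of the 24 libraries, in CPM on a linear axis from 0, by siRNA treatment (dots are libraries, bars the mean of 2; RT112 blue, SCaBER orange). SQSTM1 under siFOXA1 stands at 1204 and 1351 CPM in RT112, above every other library, and GCLM is higher in SCaBER than in RT112 under all treatments.

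SQSTM1 (ENSG00000161011; chromosome 5, 179806393 to 179838078), the autophagy receptor that sequesters KEAP1, had 356 and 284 CPM in the siControl libraries of RT112 and 1204 and 1351 under siFOXA1. In SCaBER it had 439 and 368 under siControl and 952 and 783 under siFOXA1. The groups did not overlap in either line, and the siFOXA1 libraries were the highest of RT112. The rise was 1.98 on the log2 scale in RT112 (SE 0.15, adjusted p 1.55e-09) against 1.09 in SCaBER (SE 0.13, adjusted p 2.0e-07). The lines differed by 0.89 in this rise (SE 0.22, adjusted p 0.0218), but the difference had an adjusted p of 0.128 without siControl replicate 2 and 0.0714 without siFOXA1 replicate 2 of RT112, and of 0.0992 without siControl replicate 1 and 0.105 without siFOXA1 replicate 2 of SCaBER. With mitochondrial transcripts left out, the SQSTM1 rise was 1.99 and 1.08, and the other changes called with siFOXA1 were called too.

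SQSTM1 under siFOXA1 was then compared with and without a ZBED2 siRNA. The labels name no siFOXA1 group with an added control siRNA. A ZBED2 effect and that of any added siRNA therefore cannot be told apart. SQSTM1 fell to 768 and 532 CPM with siFOXA1+siZBED2-1 in RT112, a log2 fold change of −0.97 against siFOXA1 (SE 0.15, adjusted p 6.01e-04). With siFOXA1+siZBED2-2 it stood at 528 and 524 CPM, and the change was −1.28 (SE 0.15, adjusted p 6.91e-05). Both double knock-downs of RT112 therefore lay below the siFOXA1 libraries and above the siControl libraries. ZBED2 had 9 and 7 counts there with siFOXA1+siZBED2-1 and 12 and 4 with siFOXA1+siZBED2-2, against 27 and 7 with siFOXA1 alone. FOXA1 had 19 and 56 counts and 71 and 47 counts in these groups, against 34 and 44, and the part of the target levels in the SQSTM1 difference was not tested. In SCaBER siFOXA1+siZBED2-2 gave 468 and 501 CPM, lower by −0.82 on the log2 scale (SE 0.13, adjusted p 1.39e-04). ZBED2 in SCaBER had 20 and 8 counts with siFOXA1+siZBED2-1 and 49 and 57 with siFOXA1+siZBED2-2. FOXA1 had 0 and 1 counts and 3 and 2 counts in these groups, against 4 and 6 with siFOXA1 alone. With siFOXA1+siZBED2-1, 795 and 605 CPM overlapped the siFOXA1 libraries, and the difference of −0.31 (SE 0.13, 95% interval −0.57 to −0.053) was not called at an adjusted p of 0.271.

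Without the FOXA1 siRNA, no fall of SQSTM1 was called with either ZBED2 siRNA. In RT112 it had 444 and 377 CPM under siZBED2-1 and 366 and 326 under siZBED2-2, with log2 fold changes of 0.36 (adjusted p 0.169) and 0.11 (adjusted p 1.0). In SCaBER siZBED2-1 gave 612 and 638 CPM, both above siControl, and the rise of 0.61 was called (SE 0.13, adjusted p 0.00396), though at 0.0760 without siControl replicate 2. Under siZBED2-1 FOXA1 had 14 and 1 counts in SCaBER, against 20 and 28 under siControl, and its part in the rise was not tested. There siZBED2-2 gave 432 and 334 CPM, a change of −0.073 (adjusted p 0.965). The ZBED2 siRNAs thus differed from each other in SCaBER by 0.68 (SE 0.13, adjusted p 0.00156, and 0.0671 without siZBED2-2 replicate 2), but not past the threshold in RT112 (0.25, 95% interval −0.050 to 0.55, adjusted p 0.393).

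The interaction, which subtracts the mean ZBED2 siRNA change on siControl from that on siFOXA1, was −1.35 for SQSTM1 in RT112 (SE 0.19, adjusted p 4.58e-04) against −0.83 in SCaBER (SE 0.16, adjusted p 0.00248). It was the only member called for interaction in either line, where 0.611% and 2.29% of genes were called (0.309% and 1.07% higher, 0.302% and 1.21% lower). TXN in RT112 came next, at 0.71 (SE 0.18, adjusted p 0.0726), and with the replicate number as a block it passed at 0.0225. With TPM and limma the SQSTM1 interactions were −1.31 and −0.73 and were not called (adjusted p 0.141 and 0.148). The same held for SQSTM1 against siFOXA1 in RT112 (−0.95 and −1.15, adjusted p 0.114 and 0.105), for siFOXA1+siZBED2-2 in SCaBER (−0.72, adjusted p 0.0562) and for the line difference with siFOXA1 (0.73, adjusted p 0.172). Averaged over the ZBED2 backgrounds, the FOXA1 siRNA raised SQSTM1 by 1.08 in RT112 (SE 0.088, adjusted p 7.73e-10) against 0.53 in SCaBER (SE 0.077, adjusted p 2.21e-06).

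**Figure D2:**
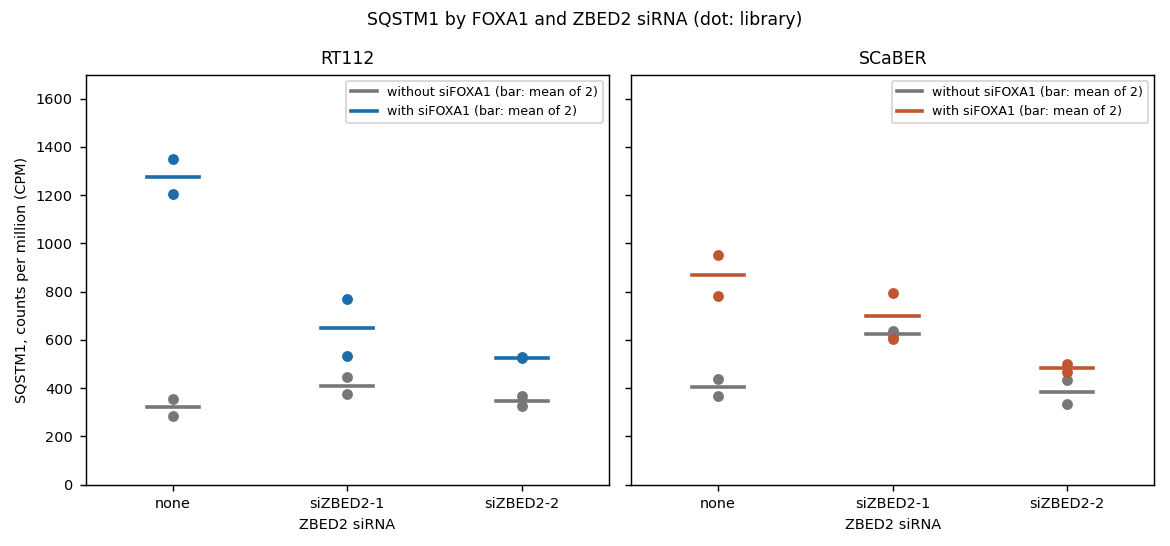
SQSTM1 in CPM (linear axis from 0) by ZBED2 siRNA in RT112 and SCaBER, without siFOXA1 (grey) and with it (colour); dots are libraries and bars the mean of 2, and none means no ZBED2 siRNA. The grey and coloured bars are farthest apart with no ZBED2 siRNA, at 284 to 356 against 1204 to 1351 CPM in RT112.

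GCLM and GCLC encode the modifier and catalytic subunits of glutamate-cysteine ligase, the rate-limiting enzyme of glutathione synthesis. GCLM (ENSG00000023909; chromosome 1, 93885199 to 93909430) had 92.7 and 98.0 CPM in RT112 siControl libraries and 62.2 and 46.7 under siFOXA1. In SCaBER it had 319 and 346 under siControl and 258 and 274 under siFOXA1. Every siFOXA1 library lay below both of its controls. The log2 fold changes were −0.82 (SE 0.23, adjusted p 0.0119) and −0.34 (SE 0.12, adjusted p 0.0488). The call was lost in RT112 without siControl replicate 2 (adjusted p 0.0560) or siFOXA1 replicate 2 (0.142). In SCaBER it was lost without any of the 4 libraries, at an adjusted p of 0.0832 and 0.311 without siControl replicate 1 and 2, and of 0.225 and 0.0917 without siFOXA1 replicate 1 and 2.

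GCLM also stood at 55.6 and 29.99 CPM with siFOXA1+siZBED2-1 and at 50.03 and 53.4 with siFOXA1+siZBED2-2 in RT112. The libraries without the FOXA1 siRNA held 61.0 and 77.5 CPM with siZBED2-1 and 88.3 and 98.4 with siZBED2-2. The averaged FOXA1 siRNA effect was −0.79 (SE 0.14, adjusted p 5.47e-05) in RT112 and −0.17 (SE 0.070, adjusted p 0.0771) in SCaBER, where the replicate block took it past the threshold (adjusted p 0.0467). GCLC (ENSG00000001084; chromosome 6, 53497341 to 53545101) was called in no comparison. It had 42.96 and 42.7 CPM under siControl and 37.9 and 40.9 under siFOXA1 in RT112, and 25.4 and 25.2 against 27.4 and 16.0 in SCaBER. The siFOXA1 change of GCLC was −0.13 (95% interval −0.67 to 0.40) in RT112 and −0.23 (−0.90 to 0.43) in SCaBER, and whether it differed from that of GCLM was not tested.

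TXN is thioredoxin, which reduces protein disulphides, and TXNRD1 is the cytosolic reductase that recharges it with NADPH. TXN (ENSG00000136810; chromosome 9, 110243810 to 110256507) had 325 and 352 CPM under siControl in RT112, 218 and 197 under siFOXA1 and 239 and 212 under siZBED2-1. Both groups lay below the controls, by −0.72 (SE 0.15, adjusted p 8.07e-04) and −0.59 (SE 0.15, adjusted p 0.0112) on the log2 scale. The siZBED2-1 call was lost without siControl replicate 2 (adjusted p 0.0855) or siZBED2-1 replicate 2 (0.124). With siFOXA1+siZBED2-2 it had 289 and 299 CPM, above both siFOXA1 libraries by 0.50 (SE 0.15, adjusted p 0.101, or 0.0425 with the replicate block). With siFOXA1+siZBED2-1 it had 200.4 and 261 CPM, which overlapped siFOXA1.

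In SCaBER TXN varied more within groups, at 264 and 442 CPM under siControl and 263 and 544 under siFOXA1, and the siFOXA1 change of 0.18 (SE 0.21, adjusted p 0.642) was not called. This value rested on single libraries, since it was 0.60 without siControl replicate 2 (adjusted p 0.0473) and 0.61 without siFOXA1 replicate 1 (0.00848). TXN was lower with siZBED2-1 (283 and 219.6 CPM) than with siZBED2-2 (388 and 443 CPM) by −0.75 (SE 0.21, adjusted p 0.0360), a call lost without siZBED2-1 replicate 2 (0.333) or siZBED2-2 replicate 2 (0.139). The difference between lines in the siFOXA1 change was −0.90 (SE 0.31, adjusted p 0.126, or 0.0468 with the replicate block). Without siControl replicate 2 or siFOXA1 replicate 1 of SCaBER it was −1.32 (0.0136) and −1.33 (0.00269).

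TXNRD1 (ENSG00000198431; chromosome 12, 104215779 to 104350307) was not called with siFOXA1 alone. It had 88.1 and 102 CPM under siControl and 84.6 and 117 under siFOXA1 in RT112, and 165 and 194 against 173 and 194 in SCaBER, and the siFOXA1 and siControl libraries overlapped in both lines. The changes were 0.06 (95% interval −0.36 to 0.49) and 0.01 (−0.28 to 0.30). Under siZBED2-1 alone in RT112 TXNRD1 had 64.7 and 64.4 CPM, both below siControl, a change of −0.56 (SE 0.22, adjusted p 0.119) that was not called. With siFOXA1+siZBED2-1 it fell below siFOXA1 in both lines, to 52.0 and 54.1 CPM in RT112 (log2 fold change −0.91, SE 0.22, adjusted p 0.0226) and to 123 and 124 in SCaBER (−0.57, SE 0.15, adjusted p 0.0271). With siFOXA1+siZBED2-2 it had 58.8 and 82.1 CPM, and 115 and 148, with changes of −0.51 (adjusted p 0.304) and −0.46 (adjusted p 0.0797, or 0.0310 with the replicate block). The first call was lost in RT112 without siFOXA1 replicate 2 (adjusted p 0.259), or without siFOXA1+siZBED2-1 replicate 1 (0.0682) or 2 (0.101). In SCaBER the same libraries decided it, with 0.226, 0.140 and 0.184.

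SRXN1 (ENSG00000271303; chromosome 20, 646615 to 653200) encodes sulfiredoxin, which repairs overoxidised peroxiredoxins, and had 0 counts in all 24 libraries. Its annotated exons share 2292 of 2528 bases (90.7%) with AL121758.1 (ENSG00000270299) on the same strand (GENCODE annotation lifted to GRCh37), which also had 0 counts. The counts used a different release, GENCODE 29 on hg38, and the reads were not examined. Whether reads in shared exons went uncounted because they fit more than a single gene was not tested. With this untested, the zero is not taken as a measure of the SRXN1 transcript, and it gets no fold change here.

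PGD encodes 6-phosphogluconate dehydrogenase, an NADPH source of the pentose phosphate pathway. PGD (ENSG00000142657; chromosome 1, 10399064 to 10420511) had 158 and 163 CPM under siControl and 119 and 87.2 under siFOXA1 in RT112. In SCaBER it had 97.9 and 98.1 under siControl and 57.6 and 66.0 under siFOXA1. The siFOXA1 libraries were lower in both lines, without overlap, by −0.65 (SE 0.19, adjusted p 0.0124) and −0.68 (SE 0.18, adjusted p 0.00509). The calls were lost without siControl replicate 2 (adjusted p 0.0517) or siFOXA1 replicate 2 (0.2096) of RT112, and without siFOXA1 replicate 1 of SCaBER (0.0652). The lines did not differ past the threshold in this change (0.031, 95% interval −0.49 to 0.55).

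PGD in the double knock-downs lay between siFOXA1 and siControl in SCaBER, at 91.6 and 80.8 CPM with siFOXA1+siZBED2-1 and 90.7 and 77.5 with siFOXA1+siZBED2-2. Those changes against siFOXA1, 0.48 and 0.46, were not called (adjusted p 0.174 each). In RT112 the double knock-downs held 131 and 109 CPM, and 109 and 132 CPM. Averaged over the ZBED2 backgrounds, the FOXA1 siRNA lowered PGD by −0.46 (SE 0.11, adjusted p 0.00155) and −0.34 (SE 0.10, adjusted p 0.0125, or 0.0713 without siZBED2-2 replicate 1). In RT112 PGD was also lower with siZBED2-1 (116 and 135 CPM) than with siZBED2-2 (219.6 and 159.5 CPM), at −0.59 (SE 0.18, adjusted p 0.0488), a call lost without siZBED2-1 replicate 1 (0.290) or 2 (0.0825) or siZBED2-2 replicate 1 (0.474).

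NQO1 encodes the quinone reductase often used as a readout of NRF2. NQO1 (ENSG00000181019; chromosome 16, 69709401 to 69726560) had 178 and 195 CPM under siControl and 131 and 131 under siFOXA1 in SCaBER. In RT112 it had 152 and 188 under siControl and 167 and 226 under siFOXA1. The groups overlapped in RT112 and did not in SCaBER, where the change was −0.53 (SE 0.14, adjusted p 0.00700, or 0.0932 without siControl replicate 2). In RT112 it was 0.19 (95% interval −0.16 to 0.54, adjusted p 0.490). The difference between lines, 0.71 (SE 0.23), was not called (adjusted p 0.101), and passed with the replicate block (0.0278) or without siFOXA1 replicate 1 of RT112 (0.0222).

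With siFOXA1+siZBED2-1 NQO1 in SCaBER stood at 187 and 165 CPM, above both siFOXA1 libraries, by 0.42 (SE 0.14, adjusted p 0.113). With siFOXA1+siZBED2-2 it stood at 110.4 and 126. The averaged FOXA1 siRNA effect was −0.23 in SCaBER (SE 0.081, adjusted p 0.0398) and 0.23 in RT112 (SE 0.10, adjusted p 0.0801, or 0.0261 with the replicate block). The SCaBER call held only without siControl replicate 1, siFOXA1+siZBED2-1 replicate 1 or siFOXA1+siZBED2-2 replicate 2, and had an adjusted p between 0.0535 and 0.132 without each of the other libraries.

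HMOX1 encodes haem oxygenase, which opens haem to biliverdin, carbon monoxide and iron. HMOX1 (ENSG00000100292; chromosome 22, 35381096 to 35394207) was low, with 20 to 71 counts per library in RT112 and 2 to 31 in SCaBER. In RT112 it had 15.5 and 12.9 CPM under siControl, 8.07 and 12.4 under siFOXA1, 7.52 and 4.87 under siZBED2-1, and 7.13 and 6.11 under siZBED2-2. The siControl libraries were the highest of the line, yet no change was called: −0.49 (SE 0.55), −1.19 (SE 0.56) and −1.10 (SE 0.56), with adjusted p-values of 0.584, 0.222 and 0.885. In SCaBER 10 and 5 counts under siControl stood against 31 and 13 under siFOXA1, and the change of 1.67 (95% interval −0.45 to 3.78) was not resolved at this depth.

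With a single ZBED2 siRNA few of the genes were called. Under siZBED2-1 they were TXN in RT112 (1 of 8, lower, against 8.8% of genes called, 4.35% higher and 4.45% lower) and SQSTM1 in SCaBER (1 of 8, higher, against 4.65%, 2.19% higher and 2.45% lower). Under siZBED2-2 none was called in either line by edgeR, against 0.166% of genes in RT112 (0.136% higher and 0.0302% lower) and 0.625% in SCaBER (0.427% and 0.198%). DESeq2 called 0 there too. At an unadjusted p under 0.05 there was 1 gene in each line, GCLC in RT112 (−0.69, SE 0.28, adjusted p 0.726) and NQO1 in SCaBER (−0.42, SE 0.14, adjusted p 0.273). The share of all genes at that threshold was not computed, so neither is read as an effect of siZBED2-2. Between the ZBED2 siRNAs, PGD was called in RT112 (1 of 8, lower with siZBED2-1, against 7.77% of genes, 3.77% higher and 4% lower). In SCaBER SQSTM1 was called higher and TXN lower (2 of 8, against 4.01%, 1.61% higher and 2.4% lower). The comparisons with siControl share the same 2 control libraries of a line.

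Adding siZBED2-1 to siFOXA1 gave calls for TXNRD1 and SQSTM1 in RT112 (2 of 8, both lower, against 2.55% of genes, 1.55% higher and 0.995% lower) and TXNRD1 in SCaBER (1 of 8, lower, against 2.73%, 1.35% higher and 1.39% lower). Adding siZBED2-2 gave SQSTM1 alone in RT112 (1 of 8, lower, against 1.25%, 0.897% higher and 0.354% lower) and in SCaBER (1 of 8, lower, against 3.66%, 2.25% higher and 1.41% lower). For the averaged FOXA1 siRNA effect 4 of 8 were called in RT112 (SQSTM1 higher, GCLM, PGD and TXN lower, against 33.8% of genes, 16.7% higher and 17% lower) and 3 of 8 in SCaBER (SQSTM1 higher, PGD and NQO1 lower, against 24.1%, 12.1% higher and 12% lower). The averaged change of TXN in RT112 was −0.25 (SE 0.086, adjusted p 0.0261) and was lost without siControl replicate 2 (0.0688), siFOXA1 replicate 2 (0.0698), siFOXA1+siZBED2-1 replicate 1 (0.110), siFOXA1+siZBED2-2 replicate 1 (0.0538), siZBED2-1 replicate 1 (0.0827) or siZBED2-2 replicate 2 (0.0930).

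**Figure D3:**
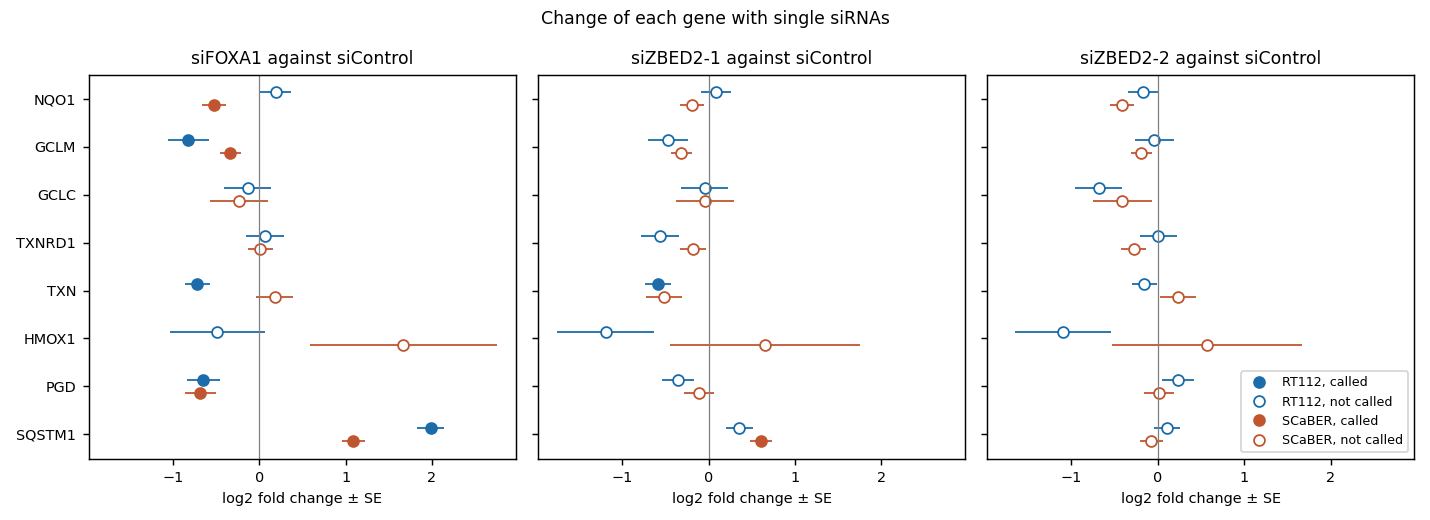
Log2 fold change against siControl (x axis, bars are ± SE) of the 8 counted genes for siFOXA1, siZBED2-1 and siZBED2-2 in RT112 (blue) and SCaBER (orange); filled circles passed an adjusted p of 0.05. Filled circles are 4 per line under siFOXA1, 1 per line under siZBED2-1 and 0 under siZBED2-2.

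Before any depletion the lines already differed. In the siControl libraries 4 of the 8 genes were called between RT112 and SCaBER, where 33.6% of 14823 genes were called. GCLM was lower in RT112 by −1.80 (SE 0.17, adjusted p 5.30e-10) and TXNRD1 by −0.91 (SE 0.19, adjusted p 2.73e-04), whereas HMOX1 was higher by 3.29 (SE 0.76, adjusted p 0.00101) and PGD by 0.71 (SE 0.18, adjusted p 0.00283). With TPM and limma PGD was at 0.46 and was not called (adjusted p 0.0601). NQO1 (−0.13, 95% interval −0.45 to 0.19), TXN (−0.062, −0.49 to 0.37), GCLC (0.76, 0.13 to 1.39, adjusted p 0.0684) and SQSTM1 (−0.34, −0.65 to −0.023, adjusted p 0.106) were not called. With the replicate block GCLC and SQSTM1 passed (adjusted p 0.0287 and 0.0459), as did SQSTM1 without siControl replicate 1 of RT112 (0.0436). The line and its medium cannot be told apart here.

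Of the change with siFOXA1, SQSTM1 was the gene called as different between the lines (1 of 8, against 2.58% of genes). Of the change with siZBED2-1, 0 of 8 were called by edgeR, 0 by DESeq2 and 0 at an unadjusted p under 0.05, against 0.735% of all genes called.

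The regulators of NRF2 were followed as a list of 10 genes. Like the members and the other lists below, it was chosen with earlier results of these data known. In RT112 0 of the 10 were called with siFOXA1 by edgeR, against 23.3% of all genes. There 4 (RBX1, MAFF, MAFG and MAFK) had an unadjusted p under 0.05. The share of all genes at that looser threshold was not computed, so the 4 are not read as a response of the regulators. NFE2L2 itself and KEAP1, singled out after their values were seen, had 133 and 164 CPM, and 77.9 and 64.9 CPM, under siControl. Under siFOXA1 they had 129 and 114 CPM (log2 fold change −0.31, SE 0.16, adjusted p 0.183), and 101 and 89.1 CPM (0.40, SE 0.20, adjusted p 0.159). In SCaBER 2 of the 10 were called higher and 2 lower, where 8.71% of all genes were called higher and 9.12% lower. RBX1, the RING subunit of the KEAP1 ligase (0.70, SE 0.16, adjusted p 0.00211), and MAFK, a small MAF partner (0.73, SE 0.17, adjusted p 0.00221), rose in SCaBER. NFE2L2 fell there from 146 and 147 to 99.96 and 90.9 CPM (−0.64, SE 0.15, adjusted p 0.00256). The remaining called regulator, named after its value was seen, was BTRC, an F-box protein that also marks NRF2 for degradation (−0.94, SE 0.27, adjusted p 0.0128). Averaged over the ZBED2 backgrounds, NFE2L2 was lower in both lines, by −0.42 (SE 0.093, adjusted p 9.44e-04) and −0.52 (SE 0.087, adjusted p 2.84e-05).

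Autophagy receptors and the LC3 family, to which SQSTM1 belongs by function, rose with siFOXA1 where they were called. In RT112 4 of 10 tested genes rose and 0 fell, with a list median of 0.61, where 11.3% of all genes were called higher and 11.9% lower. In SCaBER 6 of 11 rose and 0 fell, with a median of 0.65, where 8.71% were called higher and 9.12% lower. OPTN, a receptor of mitochondria and bacteria, went from 42.3 and 39.2 CPM to 121 and 131 in RT112 (1.62, SE 0.21, adjusted p 3.51e-06) and from 139.9 and 131 to 292 and 353 in SCaBER (1.23, SE 0.14, adjusted p 9.61e-08). TAX1BP1, another receptor, rose in both lines, by 0.73 (adjusted p 2.99e-04) and 0.82 (adjusted p 7.46e-07). GABARAPL2, an LC3 relative, rose in RT112 by 0.96 (adjusted p 1.05e-04), and the receptor NBR1 rose in SCaBER by 1.34 (adjusted p 1.82e-05).

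The same list also held 4 of 10 called genes, all higher, with siZBED2-1 in RT112, where 4.35% of all genes were called higher. OPTN there stood at 159 and 151 CPM (1.92, SE 0.21, adjusted p 8.83e-07), whereas SQSTM1 was not called. In SCaBER only GABARAPL1 of the 11 rose with siZBED2-1 (0.97, adjusted p 0.00607), where 2.19% of all genes were called higher. OPTN differed between the lines in its change with siZBED2-1 by 1.83 (SE 0.26, adjusted p 1.32e-04). With siZBED2-2 0 genes of the list were called by edgeR in either line, and 0 had an unadjusted p under 0.05. OPTN also had a called interaction of −1.08 in RT112 (adjusted p 0.0438) against −0.78 in SCaBER (adjusted p 0.00985).

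Enzymes of quinone, carbonyl and xenobiotic handling split in RT112, where 5 of 15 tested genes rose and 6 fell with siFOXA1 (11.3% and 11.9% of all genes). The aldo-keto reductases AKR1C2 and AKR1C1 had changes of −2.08 (SE 0.16, adjusted p 1.63e-09) and of −1.86 (SE 0.20, adjusted p 3.07e-07). PIR, an iron-binding nuclear protein, changed by −1.34 (SE 0.19, adjusted p 1.43e-05). AKR1C2 went from 211 and 253 CPM to 57.1 and 53.7. AKR1C1 and AKR1C2 are near-identical copies, so the split of reads between them is uncertain. In SCaBER AKR1C2 had at most 5.53 CPM, and 1 of 17 tested genes of the list was called, against 17.8% of all genes. It was ALDH3A2, a fatty aldehyde dehydrogenase (−0.89, SE 0.24, adjusted p 0.00809). The same gene rose in RT112 (0.68, adjusted p 0.0116), and the difference between lines of 1.57 was called (SE 0.31, adjusted p 0.00317).

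Glutathione enzymes were called in both directions, 4 of 14 in RT112, against 23.3% of all genes, and 4 of 13 in SCaBER, against 17.8%. In RT112 2 of 14 rose and 2 fell with siFOXA1, led by GPX2 (−1.31, adjusted p 1.47e-05), GPX1 (0.71, adjusted p 0.00832) and GSTP1 (−0.42, adjusted p 0.0112). In SCaBER 1 of 13 rose and 3 fell, led by GSTO1 (0.95, adjusted p 1.33e-05), GPX4, which reduces lipid peroxides (−0.79, adjusted p 1.74e-04), and GSR, glutathione reductase (−0.77, adjusted p 0.00888). Among thioredoxin and peroxiredoxin genes 3 of 12 rose and 2 fell in RT112 (23.3% of all genes called), and 3 rose and 0 fell in SCaBER (17.8%). TXNIP, the thioredoxin inhibitor, fell in RT112 from 476 and 500 to 228 and 200.4 CPM (−1.20, SE 0.14, adjusted p 1.20e-06) and rose in SCaBER from 56.6 and 58.6 to 79.9 and 88.6 (0.53, SE 0.17, adjusted p 0.0261). The lines differed in this change by −1.74 (SE 0.21, adjusted p 4.12e-06). SESN2, a stress-induced sestrin, led the SCaBER list (1.28, adjusted p 1.25e-05).

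Peroxiredoxins PRDX5 (0.89, adjusted p 1.91e-04) and PRDX1 (0.63, adjusted p 5.40e-04) rose in RT112, and PRDX1 rose in SCaBER (0.39, adjusted p 0.0101). PRDX1 has processed copies in the genome that can take part of its reads, as has FTL, the ferritin light chain. With siFOXA1 FTL rose in both lines, by 0.47 (adjusted p 0.00613) and 0.64 (adjusted p 4.23e-05), among haem and iron genes (against 11.3% and 8.71% of all genes called higher) of which 2 of 9 rose in RT112 (the other was TFRC, the transferrin receptor, 1.09, adjusted p 1.53e-04), and 1 of 8 rose and 1 fell in SCaBER (BLVRB, biliverdin reductase B, −0.78, adjusted p 0.0157).

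Of superoxide dismutases and catalase, SOD1 (−0.40, adjusted p 0.0170) and CAT fell in RT112, and SOD2 rose in SCaBER (1.59, adjusted p 8.92e-07). Over all 8 lists, 16 genes rose and 13 fell of 79 tested in RT112, and 14 rose and 8 fell of 80 in SCaBER, against 23.3% and 17.8% of all genes called, with medians of 0.055 and −0.046.

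Markers of the lines moved beside these genes, and their part in the results was not tested. Under siFOXA1 in RT112 4 of 6 luminal markers tested fell, led by GATA3, FOXA1 (the siRNA target) and PPARG. Of the basal markers 1 of 5 fell, TP63 (−1.89, adjusted p 0.00510). Over all genes 11.9% were called lower in that comparison. Of the 2 stromal, endothelial and immune markers tested there, the collagen gene COL1A1 rose from 4.71 to 41.3 CPM on average, and PECAM1 went from 5.67 and 1.84 CPM to 0 in both libraries and was called lower. In SCaBER 1 of 5 luminal markers tested, ELF3 (−0.87, adjusted p 0.00272), and 1 of 6 basal markers, KRT5 (−0.46, adjusted p 0.00193), fell under siFOXA1. Over all genes 9.12% were called lower there. With siZBED2-1 2 of 6 luminal markers tested rose in RT112, the uroplakins UPK1A (2.12, adjusted p 0.00245) and UPK2 (0.97, adjusted p 1.29e-04). COL1A1 rose there (2.16, adjusted p 2.24e-04), and 1 of 5 basal markers fell, KRT16 (−1.88, adjusted p 1.08e-04). Over all genes 4.35% were called higher and 4.45% lower. In SCaBER 2 of 6 basal markers rose with siZBED2-1, KRT6A (0.92, adjusted p 6.41e-07) and KRT14 (0.96, adjusted p 3.88e-06), where 2.19% of all genes were called higher.

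**Figure D4:**
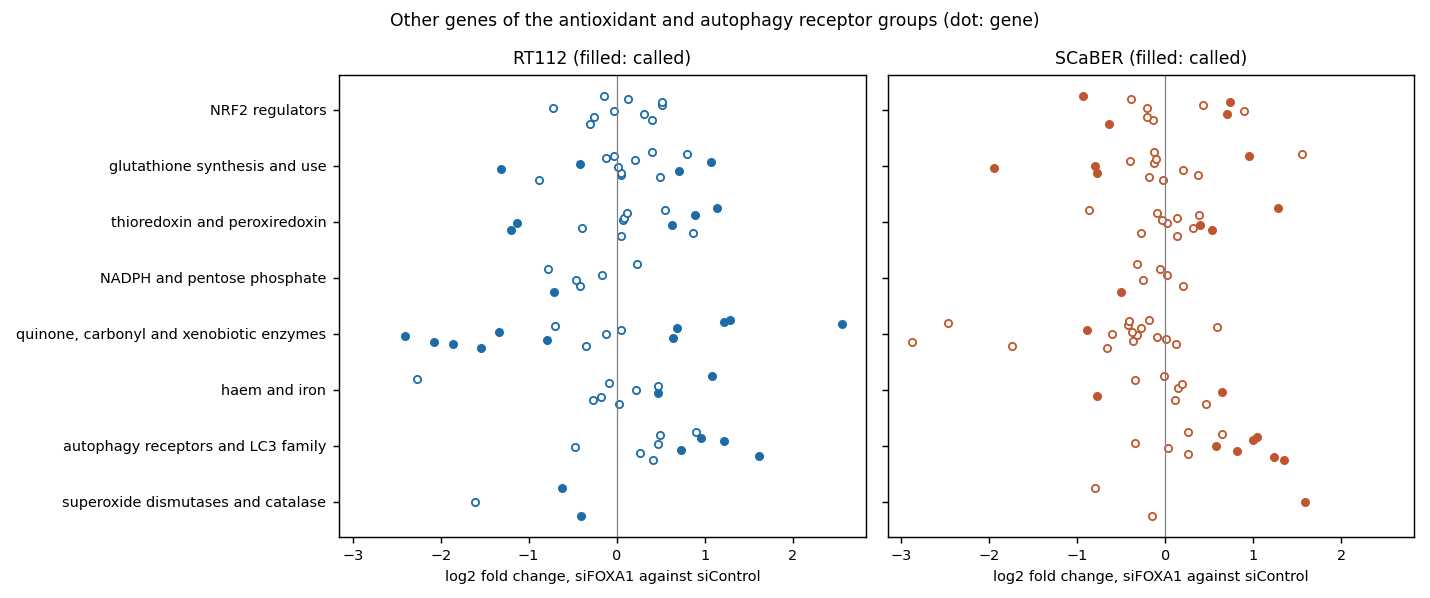
Log2 fold change with siFOXA1 against siControl (x axis) of the other pathway genes tested, 1 dot per gene, by list, in RT112 (left) and SCaBER (right); filled dots passed an adjusted p of 0.05. All filled dots of the autophagy list lie right of 0, 4 in RT112 and 6 in SCaBER, while the glutathione list has filled dots on both sides of 0 in both lines.

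With siZBED2-1 11 of the 79 pathway genes rose and 4 fell in RT112, against 8.8% of genes called, and 9 of 80 rose and 1 fell in SCaBER, against 4.65%. TXNIP rose in both lines, from 476 and 500 to 823 and 1077 CPM in RT112 (0.96, SE 0.14, adjusted p 5.30e-05) and from 56.6 and 58.6 to 215 and 166 in SCaBER (1.70, SE 0.17, adjusted p 1.89e-08). ME1, the cytosolic malic enzyme and an NADPH source, fell in both lines, by −1.79 (SE 0.49, adjusted p 0.0199) and −1.05 (SE 0.19, adjusted p 4.50e-04). FTL rose in both, by 0.42 (adjusted p 0.0309) and 0.82 (adjusted p 4.75e-06). With siZBED2-2 the genes called were PRDX1 in RT112 (0.67, adjusted p 0.0119) and TXNIP (0.73, adjusted p 0.0304) and PRDX1 (0.44, adjusted p 0.0473) in SCaBER.

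Among themselves the genes did not share a single pattern. Over the 12 group means of log2 CPM, centred within line, PGD and GCLM followed each other (Pearson r 0.72), and each ran opposite to SQSTM1 (−0.83 and −0.68), as a description over points that share libraries and depth. GCLM and GCLC had an r of −0.046, and NQO1 and GCLM of −0.35. Of the 11763 genes compared, those most like SQSTM1 were AP5Z1 (0.98), ATP6V0B (0.97) and MANBAL (0.97). PGD was most like ERCC6L (0.97), LARP1 (0.96) and MIR1244-2 (0.96), and GCLM was most like RAD54B (0.96), SMCHD1 (0.96) and LRFN4 (0.95). For the other genes the closest were RILPL1 for NQO1 (0.90), ELMSAN1 for GCLC (0.86), CSRNP2 for TXNRD1 (0.86), NR2F1 for HMOX1 (0.91) and GNB2 for TXN (0.87).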

How the data were processed

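RNA of 24 cultures was sequenced from the 3′ end (QuantSeq FWD) without molecular identifiers. The deposited gene counts were made by the authors, whose settings name TrimGalore 0.6.2 (minimum quality 20, minimum length 10), STAR 2.6.1a and GENCODE 29 on hg38, although the written methods name hg19; raw-qc 2.1.0 ran these steps. The authors also deposited TPM, used here as 1 alternative (limma 3.58.1, log2 of TPM plus 1). Groups follow the labels. Counts were tested in edgeR 4.0.16 (R 4.3.3, quasi-likelihood F-test, TMM, filterByExpr with a minimum count of 10 and total of 15), with the 12 libraries of a line in 1 fit and all 24 for differences between lines. Alternatives were DESeq2 1.42.0, other scalings, no filter, a replicate block and leaving out each library. Same-numbered libraries may share a batch. Their deviations correlated at a mean r of 0.0335 and 0.0260, with 0 of 15 group pairs over 0.1 in each line. Even so, the replicate block called more genes with siFOXA1, 3389 against 3084 in RT112 and 2631 against 2341 in SCaBER. All members were named. Of other pathway genes, the 3 with the smallest p per list were. The NADPH list with siFOXA1 is not reported here. Members and lists were chosen with earlier results of these data known. Tests were checked on simulated data.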

Additional observations from a re-analysis of the deposited data

Results flagged for a closer look

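The difference between the changes that the ZBED2 siRNAs made with and without the FOXA1 siRNA passed the test for SQSTM1, at −1.35 on the log2 scale in RT112 and −0.83 in SCaBER. The rise of SQSTM1 with siFOXA1 differed between RT112 and SCaBER by 0.89. The first pair was called without each library in turn, but not with TPM and limma (−1.31, adjusted p 0.141, and −0.73, adjusted p 0.148). The last was lost without any of 4 libraries and with TPM and limma (0.73, adjusted p 0.172).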

How the results depend on the processing

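No called change of a member took the opposite sign under any alternative. With 2 libraries per group, a lone library was assumed to vary like the other groups. Of 224 values of called members under alternatives other than leaving out a library, 206 stayed on their side of the threshold and 18 lost the call. Of 204 with 1 library left out, 159 stayed and 45 lost it. The SQSTM1 rise with siFOXA1 was called in both lines in all of them. The GCLM fall in SCaBER was also lost with no low-count filter (adjusted p 0.0849) and with RLE scaling (0.0544). Leaving out mitochondrial transcripts was chosen after seeing the data.

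Of the 8 members, those called for interaction in RT112 were 1, and 2 with DESeq2, with no filter and with the replicate block. For the siFOXA1 difference between lines they were 1, and 2 with DESeq2, 2 with no filter and 3 with the block. For siFOXA1+siZBED2-1 against siFOXA1 in SCaBER they were 1, and 2 with DESeq2. For siFOXA1+siZBED2-2 they were 1 in each line, and 2 in each with DESeq2 and with the block. For siZBED2-1 in SCaBER they were 1, and 2 with DESeq2 and with no filter. Between the ZBED2 siRNAs they were 1 in RT112, and 2 with DESeq2 and with the block, and 2 in SCaBER, and 1 with DESeq2. TPM with limma gave 0 in these comparisons, for interaction in SCaBER, for siFOXA1+siZBED2-1 in RT112 and for siZBED2-1 in RT112. The cause was not tested. The block changed the calls given in the report and TXN between the ZBED2 siRNAs in RT112 (adjusted p 0.0433).

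With 1 library left out, the members called ranged from 3 to 5 and from 1 to 4 for the averaged FOXA1 effect in RT112 and SCaBER, 1 to 2 and 1 to 1 for interaction, 2 to 4 and 3 to 3 for siFOXA1, 0 to 2 for its difference between lines, 1 to 2 and 0 to 1 for siFOXA1+siZBED2-1, 1 to 1 and 1 to 2 for siFOXA1+siZBED2-2, 0 to 1 and 0 to 2 for siZBED2-1, 0 to 1 and 0 to 2 between the ZBED2 siRNAs, and 4 to 5 between the lines.

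Over all genes, scaling by library size alone moved the median siFOXA1 change in RT112 to −0.11 and the share of higher calls from 48.6% to 38.6%, and TPM moved them to −0.26 and 18.3%. The SQSTM1 interaction stood among 81 genes called in RT112 (238 with DESeq2, 224 with no filter, 212 with the block, 4 with TPM) and 300 in SCaBER (464 with DESeq2, 508 with the block, 31 with TPM).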
